A study of Mus musculus with 72 samples.

Results

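Genes for the subunits of the proteasome and for its assembly chaperones were followed across liver and gastrocnemius muscle of fasted and fed mice. They were taken by symbol, as every gene of the expression table whose name begins with Psma, Psmb, Psmc, Psmd, Psme, Psmf or Psmg followed by a number. This gave 50 of 20561 genes, of which 48 are subunits, activators, inhibitors or chaperones of the proteasome. The other 2 matched by name only: Psmc3ip encodes a partner of a subunit that acts in meiotic recombination, and Psme2b is listed as a copy of Psme2. RNA-seq covered 72 libraries from male C57BL/6J mice aged 8 weeks, kept under 12 h of light and 12 h of dark, with no genetic alteration named. The fasted mice had no food for 24 h before tissue was taken, and the fed mice ate normal chow ad libitum. Tissue was taken at ZT0, ZT4, ZT8, ZT12, ZT16 and ZT20, where ZT counts hours from lights on, and each of the 24 combinations of tissue, feeding state and time had 3 libraries. With a fast of 24 h, food was withdrawn at the same ZT on the day before. The time of sampling and the time of food withdrawal therefore cannot be told apart in the fasted libraries. The labels do not say whether muscle and liver came from the same mice or whether animals were pooled, so each p-value measures the spread between these libraries.

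The proteasome is the large protease that degrades proteins tagged with ubiquitin. Its barrel-shaped core particle is built from rings of alpha subunits, which gate entry, and rings of beta subunits, some of which carry the proteolytic sites. The regulatory particle caps the core: its ATPase ring unfolds substrates and threads them in, and its non-ATPase subunits bind ubiquitin and remove it. In cells exposed to interferon, inducible catalytic subunits replace the constitutive ones in newly made cores, giving the immunoproteasome, which is known for producing peptides for antigen presentation. In skeletal muscle, the ubiquitin and proteasome system is known as a main route of protein breakdown during fasting.

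Values were taken as FPKM, which scale reads by gene length and library total, so levels of different genes can be set side by side. The libraries rested on an estimated 16.9 to 44.6 M reads, with a median of 25.3 M. The highest estimate, for fasted muscle ZT0 replicate 5, lay near the 45 M at which the search ended. The other libraries of its group were at 24.9 and 26.3 M. All 8 skeletal muscle markers had medians above 0.1 FPKM in both states in muscle, and all 8 hepatocyte markers did so in liver. Some libraries also held transcripts of the other tissue. The summed hepatocyte markers in muscle had a median of 0.443 FPKM (range 0.0963 to 4.40) in fasted and 44.1 FPKM (0.0948 to 176) in fed libraries, against at least 51579 FPKM in every liver library. The summed skeletal muscle markers in liver had a median of 0.762 FPKM (0.424 to 292) in fasted and 53.6 FPKM (0.953 to 145) in fed libraries, against at least 62552 FPKM in every muscle library. Libraries also showed a trend of level with transcript length, measured against the mean of the tissue, and it differed with feeding state. Its median was 0.042 log2 per doubling of length in fasted and -0.011 in fed muscle. In liver it was 0.049 in fasted and -0.027 in fed libraries, and the ranges of the states overlapped in both tissues. The steepest was fed muscle ZT16 replicate 5 at -0.22, and the 3 fed liver libraries of ZT0 lay between -0.08 and -0.15. Of the 48 proteasome genes, 46 passed the filter of at least 1 FPKM in at least 3 libraries, in muscle and likewise in liver. Psma8, the testis form of an alpha subunit, and Psmb11, the thymus form of a catalytic subunit, did not: in muscle, Psma8 reached 0.0627 FPKM in fasted and 0.0775 FPKM in fed libraries, and no muscle or liver library held more than 0.0107 FPKM of Psmb11.

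Promoter sequence was available from RefSeq (GRCm38.p6) for 40 of the 48 genes. The windows shown are the 250 bases upstream of the RefSeq transcription start of the genes on which the results below turn: Psmd11, Psmd4 and Psma1, with large rises in fasted muscle, Psmc6, with the smallest p for a rhythm there, and Psmb9 and Psmb8, with the largest falls there. The GENCODE gene models start at base 34187764 for Psmb9 and 34197721 for Psmb8, so these 2 windows lie inside the models. The window of Psmc6 ends inside its model. Bases upstream of those GENCODE starts of Psmb9 and Psmb8 were not searched. Each is written 5′ to 3′ along the gene's strand. Capitals mark matches, on either strand, to the antioxidant response element core TGACNNNGC, the CCAAT box, the E-box CACGTG, the D-box TTATGTAA, the core of the interferon-stimulated response element, which is GAAA repeated after 2 bases, and the interferon-gamma activated site TTCNNNGAA. No 2 matches overlapped.
Psmd11, chr11:80428365-80428614, plus strand: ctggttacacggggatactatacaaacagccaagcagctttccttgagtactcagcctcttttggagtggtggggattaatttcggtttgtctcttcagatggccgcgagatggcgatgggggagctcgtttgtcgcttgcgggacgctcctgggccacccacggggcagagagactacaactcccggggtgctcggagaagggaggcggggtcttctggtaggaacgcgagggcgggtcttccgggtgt
Psmd4, chr3:95042615-95042864, minus strand: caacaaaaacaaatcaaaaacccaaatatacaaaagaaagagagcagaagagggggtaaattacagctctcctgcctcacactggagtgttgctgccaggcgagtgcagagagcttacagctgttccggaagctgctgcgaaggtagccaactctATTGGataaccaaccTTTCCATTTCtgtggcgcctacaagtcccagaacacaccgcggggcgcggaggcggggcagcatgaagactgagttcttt
Psma1, chr7:114276117-114276366, minus strand: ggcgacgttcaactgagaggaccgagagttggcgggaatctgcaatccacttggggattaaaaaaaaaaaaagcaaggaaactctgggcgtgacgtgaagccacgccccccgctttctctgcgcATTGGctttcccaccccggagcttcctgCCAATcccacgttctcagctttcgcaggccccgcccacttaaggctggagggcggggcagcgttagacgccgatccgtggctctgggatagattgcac
Psmc6, chr14:45329574-45329823, plus strand: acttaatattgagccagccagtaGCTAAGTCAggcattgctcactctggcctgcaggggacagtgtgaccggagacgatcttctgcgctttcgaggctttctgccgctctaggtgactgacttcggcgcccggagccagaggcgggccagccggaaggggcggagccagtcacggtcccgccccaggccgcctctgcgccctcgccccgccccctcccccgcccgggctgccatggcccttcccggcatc
Psmb9, chr17:34187331-34187580, minus strand: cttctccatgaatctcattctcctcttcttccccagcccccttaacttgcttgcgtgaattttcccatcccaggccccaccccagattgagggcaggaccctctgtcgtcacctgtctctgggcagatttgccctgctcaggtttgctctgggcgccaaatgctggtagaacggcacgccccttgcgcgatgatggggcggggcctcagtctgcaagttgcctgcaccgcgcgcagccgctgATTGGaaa
Psmb8, chr17:34197945-34198194, plus strand: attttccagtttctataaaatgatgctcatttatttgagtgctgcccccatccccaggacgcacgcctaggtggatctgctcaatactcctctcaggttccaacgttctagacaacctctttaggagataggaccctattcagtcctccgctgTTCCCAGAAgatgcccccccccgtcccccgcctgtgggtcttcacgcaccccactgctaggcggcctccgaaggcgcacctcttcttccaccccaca
Psmd11 held none of these letters. Psmd4 held a CCAAT box, read as ATTGG, and an interferon-stimulated core, read on the other strand, with their first bases 95 and 80 bases before the start. Psma1 held a CCAAT box on each strand, Psmc6 an antioxidant core 227 bases before the start, Psmb9 a CCAAT box 8 bases before it and Psmb8 an interferon-gamma site 97 bases before it. Among the 25 constitutive core and regulatory subunit genes with a window, 4 held the antioxidant core (Psmb5, Psmb6, Psmc6 and Psmd12), which is 16% against 10.2% of all 32851 promoter windows of that length. The CCAAT box was in 10 of the 25 (40% against 33.8%), the E-box in 1 (4% against 6.02%), the interferon-stimulated core in 2 (8% against 2.98%), and the D-box and the interferon-gamma site in none (against 0.819% and 7.02%).

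In fasted muscle most constitutive subunits were more abundant than in fed muscle, and the inducible catalytic subunits and most assembly chaperones were less abundant. Of the 46 genes tested, 32 were higher in fasted than in fed muscle (30.3% of all 11223 genes tested were), 12 were lower (51.8%), and 2 did not pass at an adjusted p of 0.05 in limma with time as a factor. The median change of the 46 was 0.42 on the log2 scale, against -0.17 for all genes tested. Medians of all genes became 0.02 with median-of-ratios scaling and -0.05 with quantile normalisation, and the 46 then divided as 33 higher and 9 lower and as 32 higher and 11 lower. Among all 11223 genes, 4682 were higher and 4292 lower with the first, and 4257 higher and 4912 lower with the second. With the times kept at which fed muscle lacked liver transcripts, ZT16 and ZT20, 27 of the 46 were higher and 9 lower, and all genes were not counted in that fit. These are whole-tissue values, in which fewer cells of a type and less RNA per cell cannot be told apart.

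**Figure D1:**
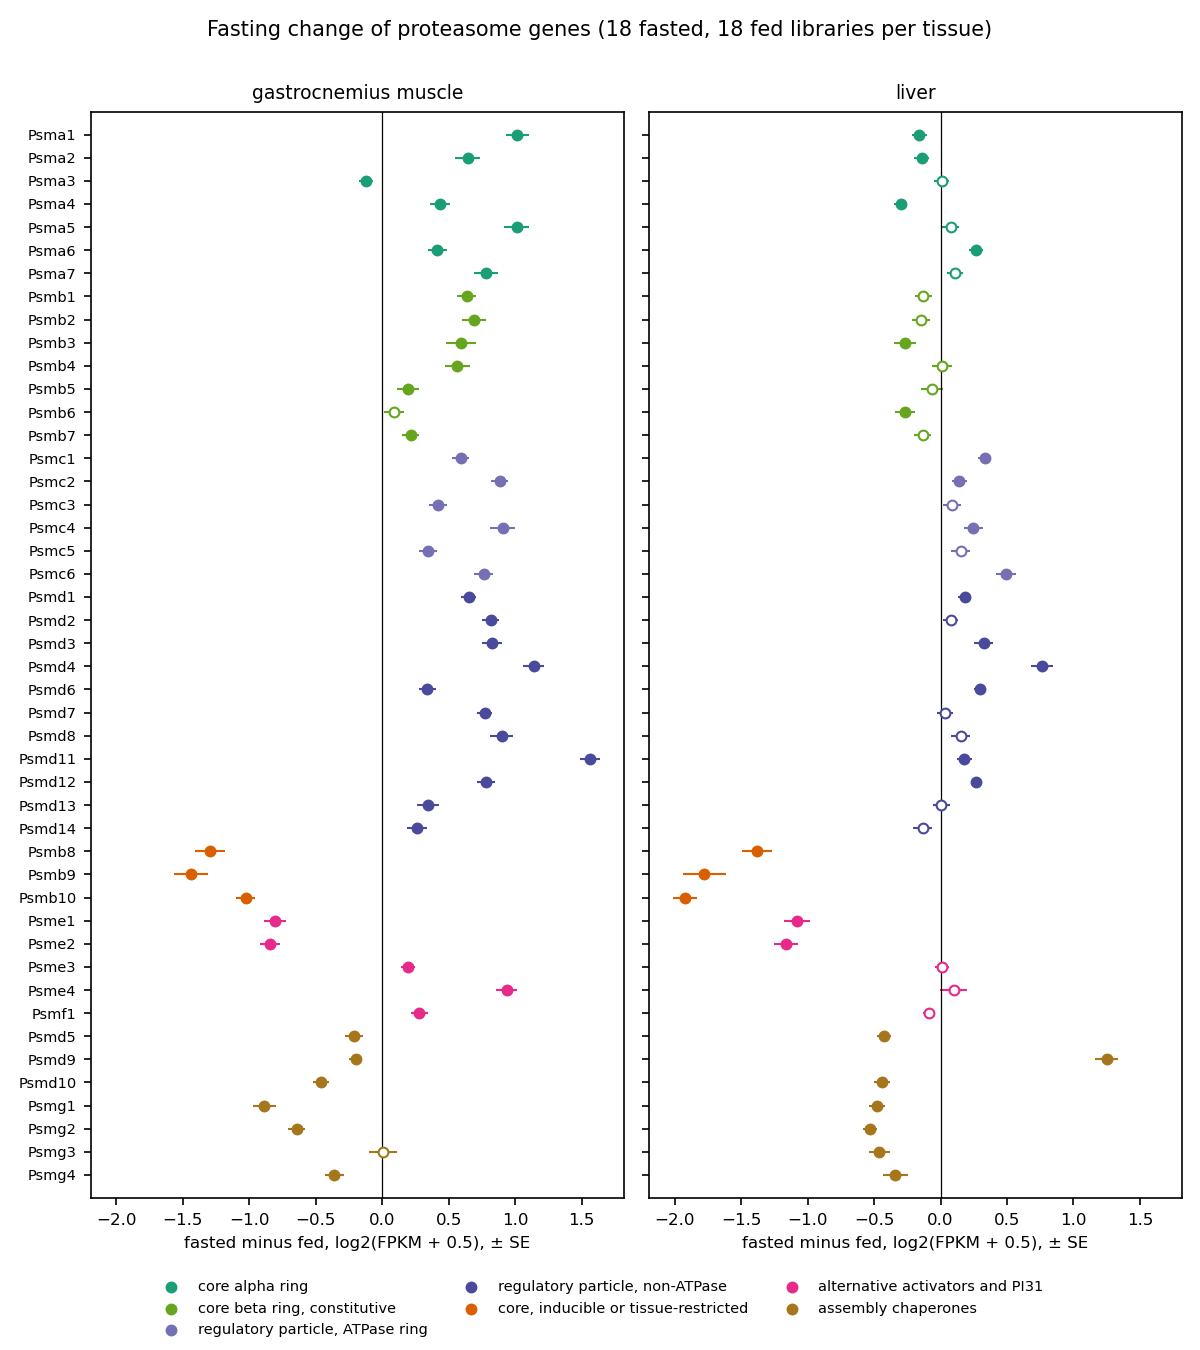
Fasting change of each proteasome gene in muscle (left) and liver (right), as fasted minus fed log2(FPKM + 0.5) with its standard error, grouped by role. Filled points passed an adjusted p of 0.05 and open points did not; Psmd11 lies highest in muscle at 1.56, and Psmb8, Psmb9 and Psmb10 lie lowest among core subunits in both tissues.

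The largest rise was that of Psmd11, a non-ATPase subunit that bridges the regulatory particle and the core. It ranged over 70.1, 116 and 143 FPKM (lowest, median, highest of 18 libraries) in fasted muscle and 28.3, 36.3 and 38.8 FPKM in fed muscle. Every fasted muscle library lay above every fed one. The fitted change was 1.56 ± 0.07 (log2, SE; adjusted p = 1.17e-19), or 2.95-fold on the scale of FPKM plus 0.5, which understates changes of low genes. Psmd4, a ubiquitin receptor, stood at 120.5, 208 and 306.5 FPKM in fasted and at 77.5, 86.1 and 123 FPKM in fed muscle. The groups met only at the edge, since the lowest fasted library lay just under the highest fed one, and the change was 1.14 ± 0.08 (2.20-fold, adjusted p = 1.28e-14). Psma1, an alpha subunit, stood at 62.7, 98.9 and 160 FPKM in fasted and 44.3, 51.1 and 61.3 FPKM in fed muscle, with no overlap, and changed by 1.02 ± 0.09 (adjusted p = 2.00e-12). Psma5, another alpha subunit, stood at 27.3, 45.5 and 69.8 FPKM in fasted and 19.1, 21.2 and 29.9 FPKM in fed muscle, with overlap at the edge and a change of 1.01 ± 0.10 (adjusted p = 1.24e-11).

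In the core particle, 12 of 14 constitutive genes were higher in fasted muscle and 1 was lower, with a median change of 0.58. The alpha ring gave 6 higher and 1 lower, and the beta ring 6 higher. The lower gene was Psma3 at -0.13 ± 0.05 (adjusted p = 0.0272), whose sign depended on the table: exonic values gave 0.21 (adjusted p = 0.0447), and with median-of-ratios or quantile scaling no core gene was lower. Its gene model shares 4733 bases with a neighbouring transcript, 3110056K07Rik, and its level, a median of 7.67 FPKM in fasted and 8.36 FPKM in fed muscle, was the lowest of the core. The constitutive catalytic subunits had small changes. Psmb7, which cuts after basic residues, ranged over 168, 217 and 309 FPKM in fasted and 162, 178 and 258 FPKM in fed muscle and changed by 0.21 ± 0.07 (adjusted p = 0.00442). At ZT16 and ZT20 alone Psmb7 did not pass (0.10, adjusted p = 0.420). Psmb5, which cuts after hydrophobic residues, ranged over 42.2, 68.3 and 105 FPKM in fasted and 51.1, 58.7 and 90.0 FPKM in fed muscle. Its change of 0.20 ± 0.08 (adjusted p = 0.0313) was lost in exonic values (0.17, adjusted p = 0.060), at ZT16 and ZT20 alone (0.16, adjusted p = 0.273) and without ZT12 (0.11, adjusted p = 0.258). It was also lost on leaving out fasted ZT8 replicate 4 (adjusted p = 0.0617), fasted ZT12 replicate 2 (0.0552) or 3 (0.0508), fed ZT12 replicate 1 (0.0572), or fed ZT16 replicate 1 (0.0543) or 4 (0.0574). Psmb6, which cuts after acidic residues, did not pass: it stood at 74.0, 95.6 and 145.5 FPKM in fasted and 82.8, 92.4 and 160 FPKM in fed muscle, with a change of 0.09 ± 0.07 (adjusted p = 0.256). It passed as higher with median-of-ratios scaling (0.30, adjusted p = 0.000487) and with the length trend removed (0.15, adjusted p = 0.0177).

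In the regulatory particle all 17 genes were higher in fasted muscle, 6 of the ATPase ring and 11 of the non-ATPase group, with a median change of 0.77. In the ATPase ring, Psmc4 changed by 0.91 and Psmc2 by 0.88. Among non-ATPase subunits, Psmd2, which docks shuttle factors, changed by 0.81 ± 0.06 (adjusted p = 8.67e-14), and Psmd14, the enzyme that strips ubiquitin from substrates, by 0.26. The median change of the core was 0.193 below that of the regulatory particle in muscle, and the difference kept its sign with each scaling tried (-0.183 to -0.193). Summed over 14 genes, core levels were 957, 1461 and 2149 FPKM in fasted and 904, 964 and 1480 FPKM in fed muscle, and 9 of 18 fasted libraries lay above the highest fed one. Summed over 17 genes, regulatory levels were 1325, 2051 and 2743 FPKM in fasted and 1096, 1170 and 1468 FPKM in fed muscle, and 16 of 18 fasted libraries lay above the highest fed one. No test was run on these sums.

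The inducible catalytic subunits were lower in fasted muscle, all 3 of the 5 inducible or tissue-restricted genes that could be tested. Psmb9, the inducible counterpart of Psmb6, stood at 0.338, 0.811 and 1.45 FPKM in fasted and 1.78, 3.02 and 6.70 FPKM in fed muscle and changed by -1.44 ± 0.13 (adjusted p = 5.03e-12). Psmb8, the counterpart of Psmb5, stood at 0.944, 1.92 and 2.75 FPKM in fasted and 3.32, 4.95 and 8.05 FPKM in fed muscle and changed by -1.29 ± 0.11 (adjusted p = 2.01e-12). Psmb10, the counterpart of Psmb7, stood at 2.18, 3.39 and 4.04 FPKM in fasted and 5.14, 7.11 and 10.6 FPKM in fed muscle and changed by -1.03 ± 0.07 (adjusted p = 1.22e-14). In none of these 3 genes did any fasted library reach the lowest fed one. All 3 were low beside their constitutive counterparts in muscle. The genes of the activator cap that is induced with them fell too: Psme1 ranged over 11.1, 15.7 and 20.2 FPKM in fasted and 20.0, 26.9 and 44.0 FPKM in fed muscle, a change of -0.81 ± 0.08 (adjusted p = 5.63e-11), and Psme2 over 3.40, 4.62 and 6.60 FPKM in fasted and 7.01, 8.67 and 13.4 FPKM in fed muscle, a change of -0.85 ± 0.08 (adjusted p = 5.62e-12). Psme4, a large nuclear activator, went the other way, at 88.5, 141 and 206 FPKM in fasted and 50.3, 75.7 and 85.0 FPKM in fed muscle, with no overlap and a change of 0.94 ± 0.08 (adjusted p = 1.39e-12). Psme3, which forms the nuclear activator ring, changed by 0.19 ± 0.05 (adjusted p = 0.0014) and Psmf1, a proteasome inhibitor in vitro, by 0.28 ± 0.06 (adjusted p = 0.000135), and neither passed at ZT16 and ZT20 alone.

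**Figure D2:**
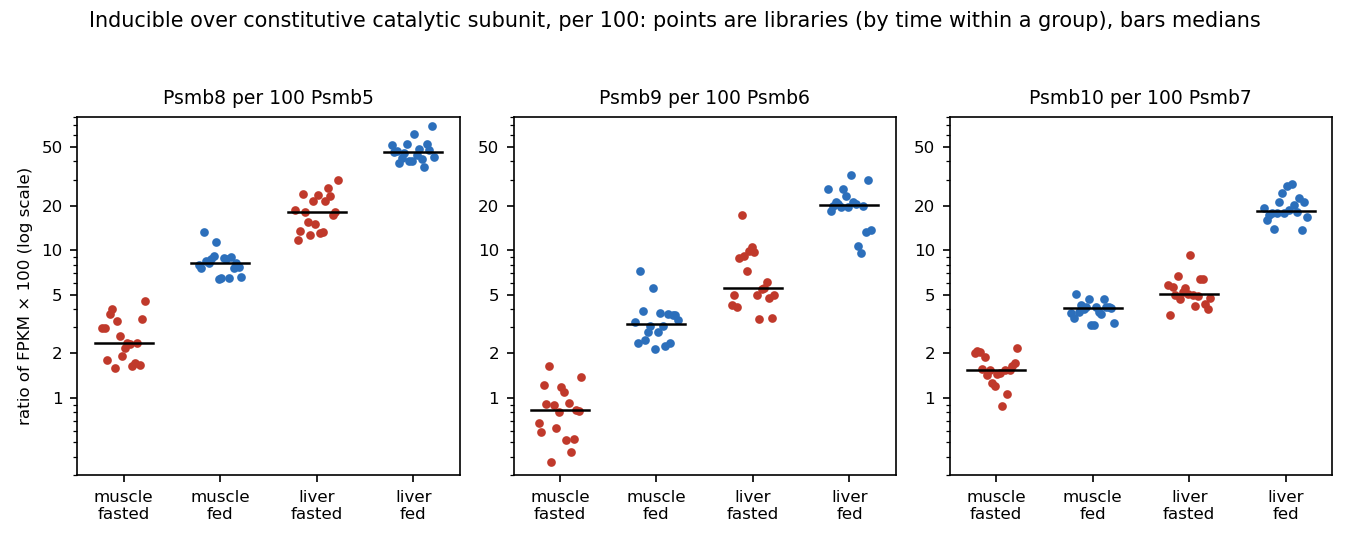
Level of each inducible catalytic subunit per 100 of its constitutive counterpart in every library (log axis), fasted left of fed, in muscle and liver; points are libraries and bars are medians of 18. Fasted libraries lay below all fed ones for Psmb8 per Psmb5 and Psmb10 per Psmb7 in both tissues and for Psmb9 per Psmb6 in muscle.

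A ratio of each inducible subunit to its counterpart within a library does not depend on the scaling of that library. Psmb8 per 100 of Psmb5 was 1.58, 2.35 and 4.50 in fasted and 6.37, 8.25 and 13.4 in fed muscle. In liver it was 11.7, 18.2 and 30.1 in fasted and 36.9, 46.1 and 69.0 in fed libraries. Psmb9 per 100 of Psmb6 was 0.368, 0.821 and 1.64 in fasted and 2.15, 3.17 and 7.19 in fed muscle. All 18 fasted muscle libraries lay below every fed one for both ratios, and so did all 18 fasted liver libraries for Psmb8. In liver, Psmb9 per 100 of Psmb6 was 3.43, 5.51 and 17.3 in fasted and 9.64, 20.2 and 32.2 in fed libraries, with 14 of 18 fasted libraries below the lowest fed one. Psmb10 per 100 of Psmb7 was 0.885, 1.55 and 2.19 in fasted and 3.12, 4.03 and 5.06 in fed muscle, and 3.64, 5.02 and 9.24 in fasted and 13.6, 18.4 and 28.2 in fed liver. The fasted and fed libraries did not overlap in either tissue for Psmb10.

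Immune cells express the inducible subunits strongly, and markers of these cells moved in the same direction. In muscle 6 of 7 macrophage markers tested were lower in fasted libraries (median change -0.46), against 51.8% of all genes. Their summed levels were 58.5 FPKM (33.8 to 92.3) in fasted and 92.6 FPKM (59.6 to 179) in fed muscle. In liver 11 of 12 macrophage markers were lower (median -0.77), against 48.0% of all genes. Their sums were 114 FPKM (57.0 to 172) in fasted and 199 FPKM (98.1 to 418) in fed liver. The Kupffer cell markers Clec4f, Cd5l and Marco had medians under 0.1 FPKM in muscle in both states. Summed lymphocyte markers were 0.343 FPKM (0.168 to 0.698) in fasted and 1.03 FPKM (0.458 to 3.82) in fed muscle, and 1.37 FPKM (0.876 to 2.77) in fasted and 3.17 FPKM (1.48 to 4.77) in fed liver. None of the 10 lymphocyte genes passed the filter in muscle, and in liver the 1 that did, Cd79b, changed by -0.67 (adjusted p = 1.24e-07). Of 8 endothelial markers, 6 were lower and 2 higher in fasted muscle, and 6 were lower and 1 higher in fasted liver. Of all genes, 51.8% were lower and 30.3% higher in muscle, and 48.0% and 25.0% in liver. The part of these cells in the change of Psmb8, Psmb9, Psmb10, Psme1 and Psme2 was not tested.

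Assembly chaperones, which build the core and the base of the regulatory particle and then leave, did not rise with the subunits in muscle. Of 7, none was higher (30.3% of all genes were), 6 were lower (51.8%) and 1 did not pass in limma. None was higher at an unadjusted p under 0.05 either. Psmg1, which with Psmg2 scaffolds the alpha ring, stood at 2.32, 3.82 and 5.53 FPKM in fasted and 5.90, 7.20 and 11.3 FPKM in fed muscle. No fasted library reached the lowest fed one, and the change was -0.89 ± 0.08 (adjusted p = 1.84e-11). Psmg2 changed by -0.64 ± 0.06 (adjusted p = 5.67e-11), again with no overlap of the groups. Psmd9, a chaperone of the ATPase ring, changed by -0.20 ± 0.05 (adjusted p = 0.000349), a change that came to -0.003 with median-of-ratios scaling. At ZT16 and ZT20 alone Psmd9 did not pass (-0.15, adjusted p = 0.178). Psmg3, which joins alpha ring assembly with Psmg4, did not pass (0.01 ± 0.11, adjusted p = 0.950). Psmc3ip, matched by name only, changed by -0.43 (adjusted p = 5.44e-06) in muscle.

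Counting genes whose fasted and fed libraries did not overlap, 5 were higher in fasted muscle (Psma1, Psmd1, Psmd11, Psmd2 and Psme4; 8.00% of all genes were) and 6 lower (Psmb8, Psmb9, Psmb10, Psme2, Psmg1 and Psmg2; 13.6%). In liver 1 was higher (Psmd9; 2.39%) and 4 were lower (Psmb8, Psmb10, Psme1 and Psme2; 7.45%).

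In liver the fasting changes of the constitutive subunits were small, and the inducible subunits were lower in fasted libraries, as in muscle. Of 46 genes tested, 12 were higher in fasted than in fed liver (25.0% of all 10780 genes tested were), 16 were lower (48.0%) and 18 did not pass. The median change of the 46 was 0.01, against -0.13 for all genes. With median-of-ratios scaling the median of all genes became 0.04 and the split of the 46 was 25 higher and 10 lower. Among all 10780 genes, 4254 were then higher and 3651 lower. With quantile normalisation the median of all genes became 0.01 and the split was 27 higher and 11 lower, against 4011 higher and 3893 lower among all genes. At ZT0 alone, where fed liver lacked muscle transcripts, it was 4 higher and 25 lower. At ZT0 and ZT4 together it was 6 higher and 22 lower. All genes were not counted in these fits on fewer times.

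The liver core gave 1 higher (Psma6, 0.27) and 5 lower of 14 (median change -0.13) with the deposited scaling. Among all genes 25.0% were higher and 48.0% lower, with the same median change of -0.13. The core gave 5 higher and none lower with median-of-ratios scaling and 8 higher and none lower with quantile normalisation. The lower 5 were Psma1, Psma2, Psma4, Psmb3 and Psmb6, and Psma1 changed sign with either scaling (-0.16 ± 0.06, adjusted p = 0.0138, against 0.04 and 0.08). Psma4 was at -0.30 (adjusted p = 2.03e-06) and Psmb6 at -0.27 ± 0.08 (adjusted p = 0.00196). Psmb5, at 35.3, 49.8 and 78.8 FPKM in fasted and 43.7, 54.0 and 79.1 FPKM in fed liver, did not pass (-0.06 ± 0.08, adjusted p = 0.498), nor did Psmb7 (-0.13 ± 0.06, adjusted p = 0.0538) with the deposited scaling. With quantile normalisation both passed as higher (0.16, adjusted p = 0.0335, and 0.10, adjusted p = 0.0398), and at ZT0 alone both passed as lower (-0.61 and -0.58). Psmb7 also passed as lower without ZT12 (-0.21, adjusted p = 0.00131) and on leaving out any 1 of 9 libraries. The regulatory particle gave 10 higher of 17, none lower, and a median change of 0.18, with 16 higher and none lower with either other scaling. None of the 17 was lower at an unadjusted p under 0.05. The core median lay 0.310 below the regulatory median, and between 0.252 and 0.309 below it with the scalings tried.

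Psmd4 and Psmd9 rose most in liver. Psmd4 stood at 68.3, 102 and 159 FPKM in fasted and 45.3, 58.4 and 85.3 FPKM in fed liver, overlapping in part, and changed by 0.77 ± 0.08 (adjusted p = 8.51e-10). Psmd9 stood at 23.4, 32.4 and 73.9 FPKM in fasted and 11.0, 13.8 and 20.4 FPKM in fed liver, with no overlap and a change of 1.25 ± 0.09 (adjusted p = 1.60e-14). The Psmd9 gene model shares 10921 bases with Hpd, a tyrosine-breakdown gene on the opposite strand that averaged 2291 FPKM in fasted and 1074 FPKM in fed liver, and the library kit does not mark strand, so reads of the pair cannot be told apart. Psmc6, an ATPase subunit, changed by 0.49 ± 0.07 (adjusted p = 5.39e-07), and by 0.33 without ZT0. At ZT0 it had 43.8, 55.6 and 56.6 FPKM in fasted liver and 20.4, 21.0 and 21.4 FPKM in fed liver, where the libraries of other times held 39.0 to 51.1 FPKM. The drop of Psmc6 in fed liver at ZT0 was also in exonic values (23.0 to 24.2 FPKM, against 45.7 to 60.2 at other times) and in intronic values (3.30 to 3.77 FPKM, against 5.08 to 7.87). Psmc1, of the ATPase ring, changed by 0.33 ± 0.05 (adjusted p = 4.99e-07). Among the 18 that did not pass, Psmd8, a non-ATPase subunit (0.15 ± 0.07, adjusted p = 0.0555), the ATPase Psmc5 (0.15 ± 0.07, adjusted p = 0.0641) and Psmb2, a beta subunit (-0.15 ± 0.07, adjusted p = 0.0618), had the largest changes. These calls were not stable. With median-of-ratios and quantile scaling, Psmd8 (0.35 and 0.39) and Psmc5 (0.35 and 0.38) passed as higher, and both also passed in exonic values and without ZT0. Psmb2 passed as lower at ZT0 alone (-0.68, adjusted p = 0.00071) and without ZT12 (-0.20, adjusted p = 0.0205). Leaving out 1 library made Psmd8 pass for 10 libraries, Psmb2 for 7 and Psmc5 for 5.

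The inducible subunits were lower in fasted liver too. Psmb10 had 3.58, 5.51 and 11.8 FPKM in fasted and 15.6, 24.1 and 31.7 FPKM in fed liver, a change of -1.92 ± 0.09 (adjusted p = 4.92e-19). Psmb9 had 2.09, 4.13 and 12.9 FPKM in fasted and 7.31, 17.9 and 28.9 FPKM in fed liver, overlapping in some libraries, a change of -1.78 ± 0.16 (adjusted p = 1.13e-11). Psmb8 had 5.30, 10.2 and 14.4 FPKM in fasted and 17.6, 24.8 and 37.7 FPKM in fed liver, a change of -1.38 ± 0.11 (adjusted p = 1.46e-12). Levels of all 3 genes were higher in liver than in muscle in both states, by their medians. Psme2 had 7.23, 14.8 and 19.8 FPKM in fasted and 27.3, 31.3 and 39.2 FPKM in fed liver (-1.16 ± 0.09, adjusted p = 2.49e-13), and Psme1 had 20.7, 37.0 and 49.3 FPKM in fasted and 56.8, 72.5 and 96.3 FPKM in fed liver (-1.08 ± 0.10, adjusted p = 1.32e-11). Psme3 (0.01, adjusted p = 0.856) and Psme4 (0.10 ± 0.10, adjusted p = 0.392) did not pass in liver with the deposited scaling, but were higher with median-of-ratios (0.21 and 0.30) and quantile scaling (0.18 and 0.26). Psme4 was also higher at ZT0 alone (1.00, adjusted p = 9.18e-05) and without ZT12 (0.21, adjusted p = 0.0457). In the limma test at each time, Psme4 was lower in fasted liver at ZT12 (-0.47, adjusted p = 0.0332). By that test Psme3 was higher at ZT8 (0.28, adjusted p = 0.0183) and lower at ZT16 (-0.29, adjusted p = 0.0121). Of the 7 chaperones, 6 were lower in fasted liver (48.0% of all genes were) and Psmd9 was higher. Psmg2 was at -0.53 ± 0.05 (adjusted p = 1.87e-10), Psmg1 at -0.48 ± 0.06 (adjusted p = 1.33e-08) and Psmg3 at -0.46 ± 0.08 (adjusted p = 4.57e-06).

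The fasting change differed between the tissues for most subunits. In a model of all 72 libraries, the change in muscle was above the change in liver for 36 of 46 genes (38.5% of the 9419 genes tested in both tissues were), below it for 2 (31.8%), and 8 did not pass. Among core genes 12 of 14 lay above, with a median of 0.70 log2, muscle minus liver, and among regulatory genes 16 of 17, with a median of 0.47, against 0.05 for all genes. The clearest gap was in Psmd11, at 1.38 (adjusted p = 6.10e-27), whose liver change was 0.18 ± 0.06. Psma1 followed with 1.17 (adjusted p = 3.93e-21), Psmd2 with 0.739 (adjusted p = 2.93e-17) and Psma5 with 0.935 (adjusted p = 6.06e-15). The liver changes of Psmd2 (0.08, adjusted p = 0.204) and Psma5 (0.08, adjusted p = 0.279) did not pass with the deposited scaling. With median-of-ratios and quantile scaling they passed as higher, Psmd2 at 0.28 and 0.31 and Psma5 at 0.28 and 0.26. Psmd2 also passed in exonic values (0.12, adjusted p = 0.0297) and without ZT0 (0.15, adjusted p = 0.0152), and it was lower at ZT0 alone (-0.28, adjusted p = 0.0265). Psma5 also passed with the length trend removed (0.19, adjusted p = 0.00275). The 2 genes below were Psmd9 at -1.45 (adjusted p = 5.66e-19), with the overlap with Hpd given above, and Psmg1 at -0.407 (adjusted p = 0.000184). Psmb10 fell further in liver, with a difference of 0.89 (adjusted p = 2.26e-09).

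**Figure D3:**
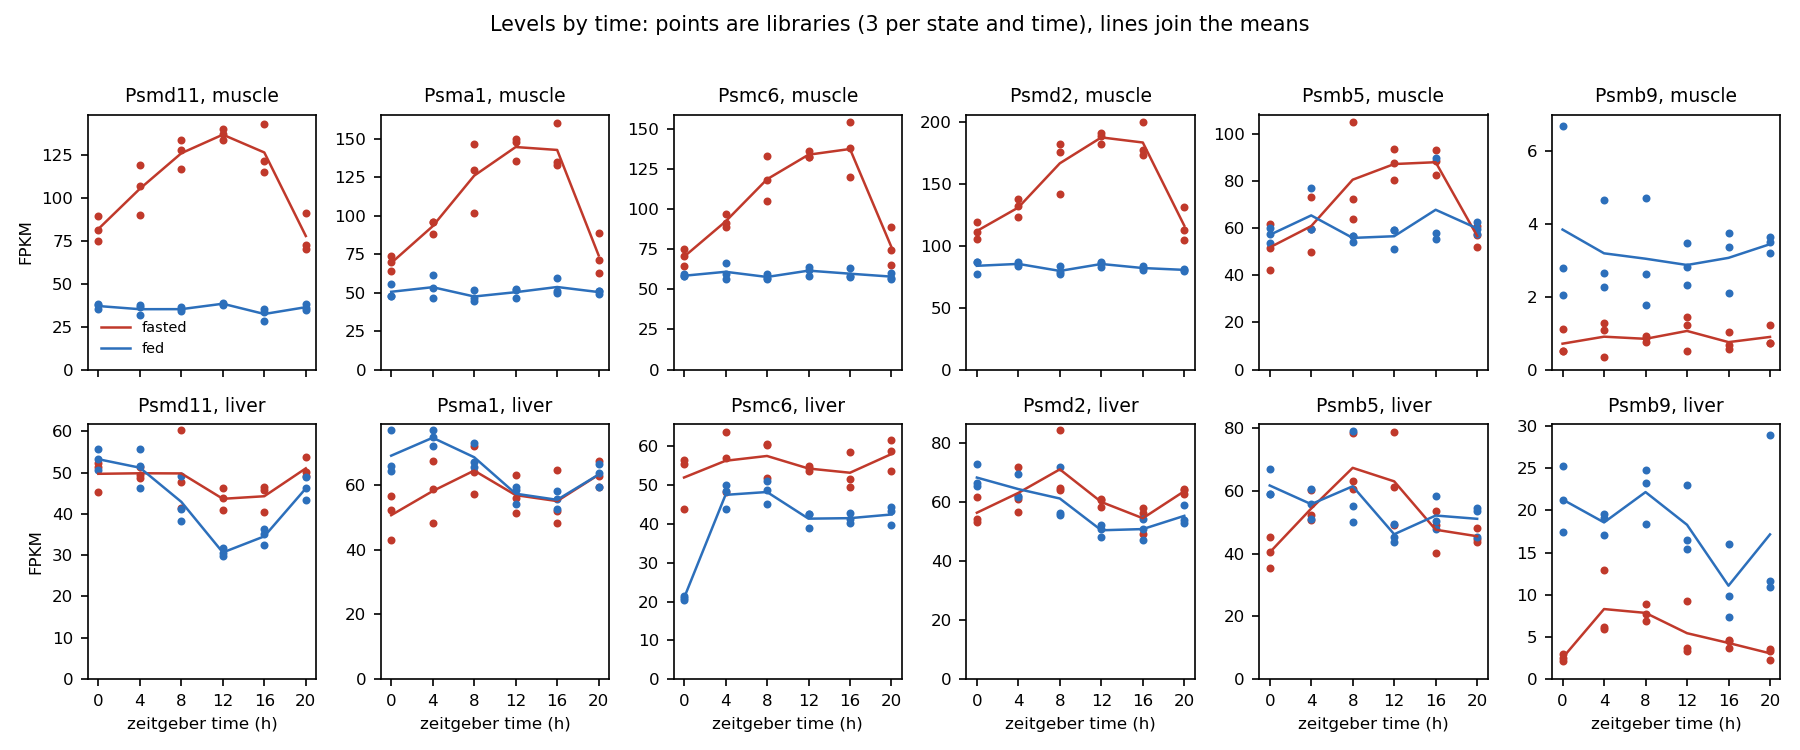
FPKM of 6 proteasome genes at each ZT in muscle (upper row) and liver (lower row), with each library as a point and lines through the means of 3; fasted in red, fed in blue. In fasted muscle Psmd11, Psma1, Psmc6 and Psmd2 were highest between ZT8 and ZT16, and in fed muscle they stayed low at all 6 times.

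The rise in fasted muscle varied with the time of day. Psmd11 had 75.0, 81.3 and 89.9 FPKM at ZT0 in fasted muscle, 90.0, 107 and 120 at ZT4, 117, 128 and 134 at ZT8, 134, 137 and 140 at ZT12, 115, 122 and 143 at ZT16, and 70.1, 72.5 and 91.3 at ZT20. The fed muscle libraries of all times lay between 28.3 and 38.8 FPKM of Psmd11. Its change was 1.13 at ZT0, 1.56 at ZT4, 1.82 at ZT8, 1.82 at ZT12, 1.95 at ZT16 and 1.08 at ZT20, and it passed at each. Psma1 means in fasted muscle were 69.3, 93.2, 126, 145, 143 and 74.2 FPKM in order of time, with fed libraries between 44.3 and 61.3 FPKM. Psmd4 means in fasted muscle were 136, 179, 246, 259, 253 and 147 FPKM, and Psmd2 means 112, 131, 166, 187, 183 and 116 FPKM. These genes were all lowest at ZT0 and ZT20 and highest between ZT8 and ZT16.

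Counts followed the same course. In fasted muscle 14, 19, 32, 33, 31 and 14 of 46 genes were higher than in fed muscle at ZT0 to ZT20 in order of time, against 14.5%, 21.7%, 23.7%, 28.1%, 29.1% and 13.7% of all genes. Lower at these times were 13, 10, 8, 8, 7 and 8 of the 46, against 41.9%, 38.7%, 40.1%, 34.9%, 32.6% and 33.9% of all genes. All 17 regulatory genes were higher at ZT8, ZT12 and ZT16, against 11, 12 and 10 at ZT0, ZT4 and ZT20. Of the 14 core genes, 12, 12 and 11 were higher at ZT8, ZT12 and ZT16, against 2, 6 and 3 at ZT0, ZT4 and ZT20. The median change of the core was 0.11 at ZT0 and 1.01 at ZT8, and that of the regulatory particle 0.35 at ZT0 and 1.03 at ZT8. At all 6 times, 12 genes were higher (9.93% of all genes were): Psma1, Psma5, Psmc2, Psmc6, Psmd1, Psmd2, Psmd3, Psmd4, Psmd7, Psmd11, Psmd12 and Psme4. At all 6 times 6 were lower (20.9%): Psmb8, Psmb9, Psmb10, Psme1, Psme2 and Psmg1. Leaving out fed muscle ZT16 replicate 5 gave 16 that were higher at all times, and leaving out fasted muscle ZT0 replicate 5 gave 9.

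In liver the course was different. In fasted liver 5, 4, 8, 19, 6 and 8 genes were higher at ZT0 to ZT20 in order of time, against 27.7%, 11.6%, 9.80%, 12.6%, 11.9% and 15.7% of all genes. Lower were 26, 11, 9, 9, 13 and 12, against 39.6%, 32.6%, 28.8%, 28.1%, 35.2% and 30.0% of all genes, so that higher genes were most frequent at ZT12 and lower ones at ZT0. The core had 10 of 14 lower at ZT0, with a median of -0.48, and 4 higher at ZT12. The regulatory particle had 3 higher and 4 lower at ZT0 and 14 of 17 higher at ZT12, with a median of 0.48. For Psmd11, fasted liver means were 49.7, 49.8, 49.8, 43.6, 44.3 and 51.0 FPKM in order of time, and fed liver means 53.2, 51.2, 42.9, 30.7, 34.6 and 46.2 FPKM. Its change passed at ZT12 (0.50, adjusted p = 0.000509) and ZT16 (0.35, adjusted p = 0.00855). Psma1 was lower in fasted liver at ZT0 (-0.45, adjusted p = 0.00192) and ZT4 (-0.37, adjusted p = 0.0145). Genes higher in fasted liver at all 6 times were Psmd4 and Psmd9 (3.69% of all genes), and lower ones were Psmb8, Psmb9, Psmb10, Psme1, Psme2 and Psmg2 (11.8%). The 2 higher genes became 6 with median-of-ratios scaling, 9 with quantile normalisation and 4 with the length trend removed. Psmb9 changed by -2.85 at ZT0 and by between -1.20 and -2.19 at the other times in liver. In muscle its change lay between -1.15 and -1.74.

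A cosine with a 24-h period was fitted to each gene to test for a daily rhythm within a feeding state, from 6 times that cover 1 day. In fasted muscle 39 of 46 proteasome genes passed (47.4% of all genes did), and in fed muscle 0 of 46 passed in limma (4.46%), also with none at an unadjusted p under 0.05 and none with time as a 6-level factor in place of the cosine. The difference in rhythm between the states passed for 34 (32.6%). Of the 31 constitutive core and regulatory genes, 30 passed in fasted muscle, all but Psma3, and the difference between states passed for 29. Their peaks lay between ZT10.3 and ZT12.5, with a median of ZT11.7, just before the start of the dark. Their median amplitude was 0.43 log2 in fasted and 0.036 in fed muscle, against 0.17 and 0.079 for all genes. With each time left out in turn, between 36 and 40 of the 46 passed in fasted muscle and none in fed muscle.

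**Figure D4:**
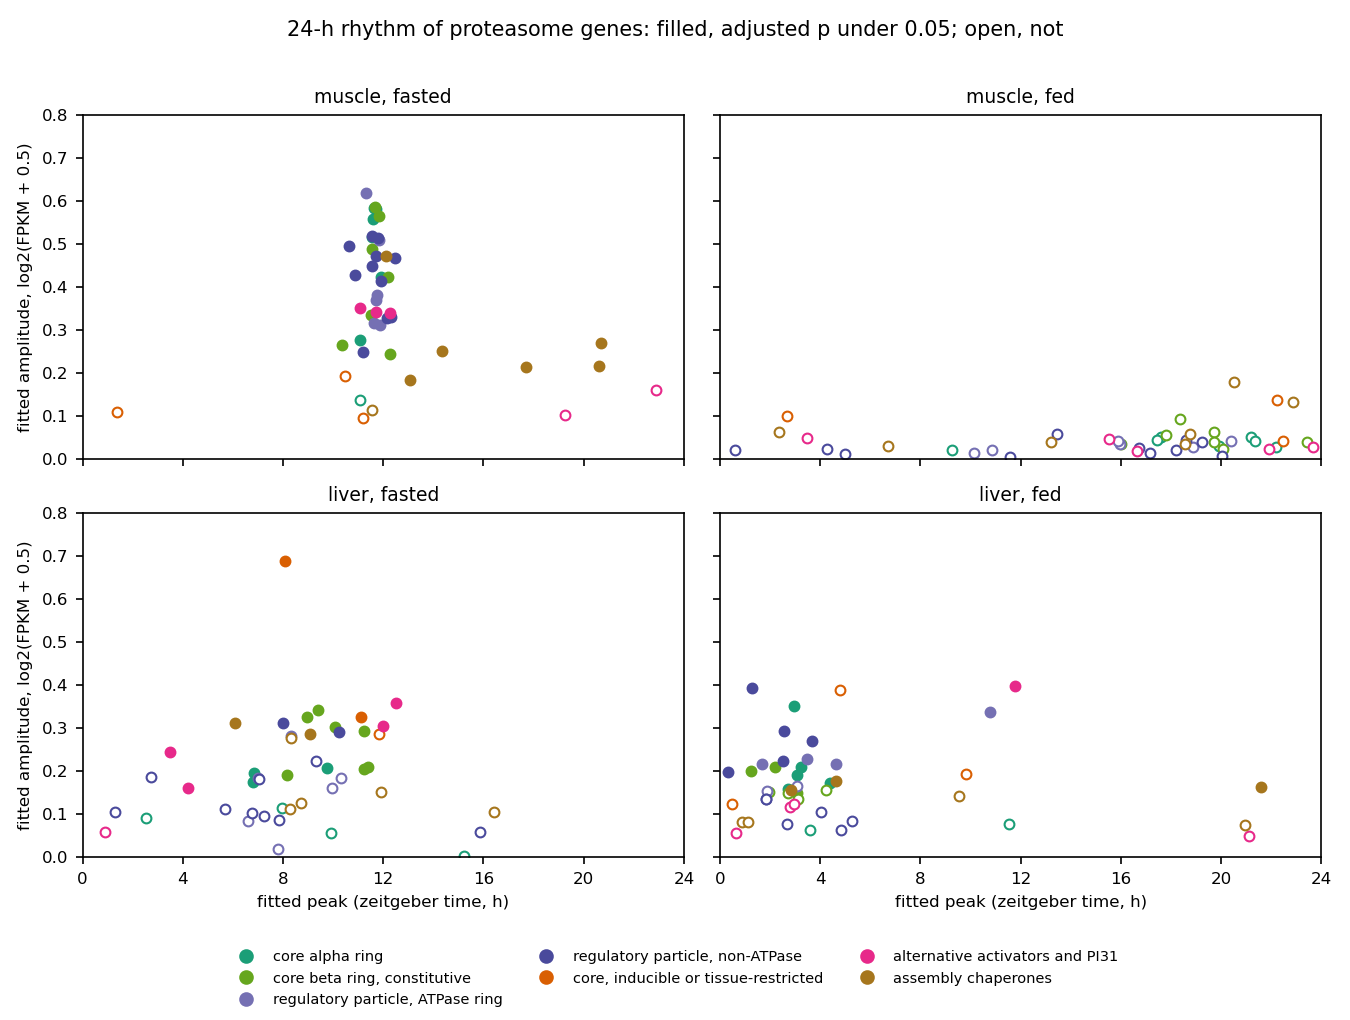
Peak time (ZT, h) against amplitude (log2) of the fitted 24-h cosine for each proteasome gene, in fasted and fed muscle and in fasted and fed liver; filled points passed an adjusted p of 0.05. In fasted muscle the constitutive subunits lie between ZT10.3 and ZT12.5, and in fed muscle no point is filled.

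Psmc6 had the smallest p: its amplitude in fasted muscle was 0.51 ± 0.05 (log2, SE), a fitted swing of 2.03-fold from trough to peak, with a peak at ZT11.8 (adjusted p = 5.47e-10), and 0.02 in fed muscle (adjusted p = 0.994). Its fasted muscle means were 70.3, 92.3, 119, 134, 137 and 76.2 FPKM in order of time, and its fed libraries lay between 56.3 and 66.6 FPKM. Psmd2 had an amplitude of 0.41 ± 0.04 with a peak at ZT11.9 (adjusted p = 6.01e-10), the activator Psme3 one of 0.34 ± 0.03 with a peak at ZT12.3 (adjusted p = 1.35e-09), and Psma1 one of 0.58 ± 0.06 with a peak at ZT11.7 (adjusted p = 1.55e-09). Among the constitutive catalytic subunits, Psmb5 had an amplitude of 0.42 in fasted muscle (peak at ZT12.2, adjusted p = 1.64e-05), Psmb7 one of 0.27 and Psmb6 one of 0.24 (peak at ZT12.3, adjusted p = 0.0163). The difference between states passed for Psmb5 (adjusted p = 0.00179) and Psmb7 (adjusted p = 0.0295) and not for Psmb6 (adjusted p = 0.104). The inducible Psmb8, Psmb9 and Psmb10 did not pass in either state in muscle, with none at an unadjusted p under 0.05. Of the chaperones, 6 of 7 passed in fasted muscle, with peaks spread more widely: Psmg1 and Psmg2 peaked at ZT20.7 and ZT20.6, Psmd10, a base chaperone, at ZT17.7, Psmd5, another one, at ZT14.4, Psmd9 at ZT13.1 and Psmg3 at ZT12.1. Across all 46, a rhythm with its peak from ZT9 to ZT15 was found for 36 in fasted muscle (23.4% of all genes). Summed over the 31 constitutive genes, means in fasted muscle were 2545, 3196, 4040, 4240, 4263 and 2650 FPKM in order of time, and in fed muscle 2117, 2340, 2032, 2159, 2371 and 2159 FPKM.

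In fed muscle the smallest p belonged to Psmd10 (adjusted p = 0.456), Psmg3 (adjusted p = 0.631), Psmb6 (adjusted p = 0.886) and Psmb9 (adjusted p = 0.939). In liver rhythms were found in both states. In fasted liver 22 of 46 passed (31.0% of all genes did), in fed liver 21 (39.7%), and the difference passed for 19 (32.4%). Without ZT0 these counts were 14, 9 and 0. At that time the 3 fed liver libraries had the length trend given above. With that trend removed and all times kept, each liver count stayed within 1.5 times the one given. The part of the trend in the counts without ZT0 was not tested. Without fed liver ZT0 replicate 5 or without fasted liver ZT0 replicate 1, the difference passed for 12. Psmd11 had an amplitude of 0.10 in fasted liver (adjusted p = 0.166), against 0.39 ± 0.04 with a peak at ZT1.27 in fed liver (adjusted p = 1.72e-07). In fasted liver, Psmg2 peaked at ZT6.1 (amplitude 0.31, adjusted p = 9.99e-05), Psmd13, a non-ATPase subunit, at ZT10.2 (0.29, adjusted p = 0.000186), Psmf1 at ZT3.5 (0.24, adjusted p = 0.000422) and Psmd8 at ZT8.0 (0.31, adjusted p = 0.000465). In fed liver Psma5 peaked at ZT2.9 (0.35, adjusted p = 0.000132), Psmc1 at ZT3.5 (0.23, adjusted p = 0.000685) and Psmd2 at ZT2.5 (0.22, adjusted p = 0.0019). Psmb6 had amplitudes of 0.29 in fasted (adjusted p = 0.000695) and 0.15 in fed liver (adjusted p = 0.0766). The largest amplitude in fasted liver was that of the inducible Psmb9, 0.69 ± 0.15 with a peak at ZT8.1 (adjusted p = 0.00223). Its means in fasted liver were 2.51, 8.30, 7.85, 5.44, 4.28 and 3.05 FPKM in order of time, while the summed macrophage markers of the same libraries averaged 108, 107, 77.9, 96.8, 115 and 139 FPKM and summed lymphocyte markers 1.57, 2.35, 1.51, 1.65, 1.23 and 1.28 FPKM. Psmb9 and the lymphocyte sum were highest at ZT4 and the macrophage sum at ZT20, and the part of these cells in the rhythm was not tested. In fed liver Psmb9 did not pass (0.39 ± 0.15, adjusted p = 0.0873), nor did the difference between states (adjusted p = 0.116). Psmb10 passed in fasted liver (0.33 ± 0.09, adjusted p = 0.0121), and Psmb8 in neither state (adjusted p = 0.0886 in fasted and 0.592 in fed liver). By core and regulatory particle, 10 of 14 and 4 of 17 genes passed in fasted liver, and 8 of 14 and 9 of 17 in fed liver.

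Reads in introns come largely from RNA that is not yet spliced, so setting the exonic change beside the intronic one asks whether a change was already there before splicing. In muscle 45 of the genes could be tested in both tables, since Psma6 was not. Intronic values were higher in fasted muscle for 32 (26.8% of all genes were) and lower for 7 (42.9%), and exonic values were higher for 31 (28.5%) and lower for 11 (54.0%). All 30 constitutive core and regulatory genes tested were higher in introns, with a median change of 1.38, and 28 were higher in exons, with a median of 0.63. The exonic change minus the intronic change was below 0 for 31 of 45 (25.6% of all genes) and above 0 for 1 (26.8%). Among the constitutive genes it was below 0 for 28 of 30, with a median of -0.72, against 0.01 for all genes. With ZT16 and ZT20 alone it was below 0 for 23 of the 45.

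**Figure D5:**
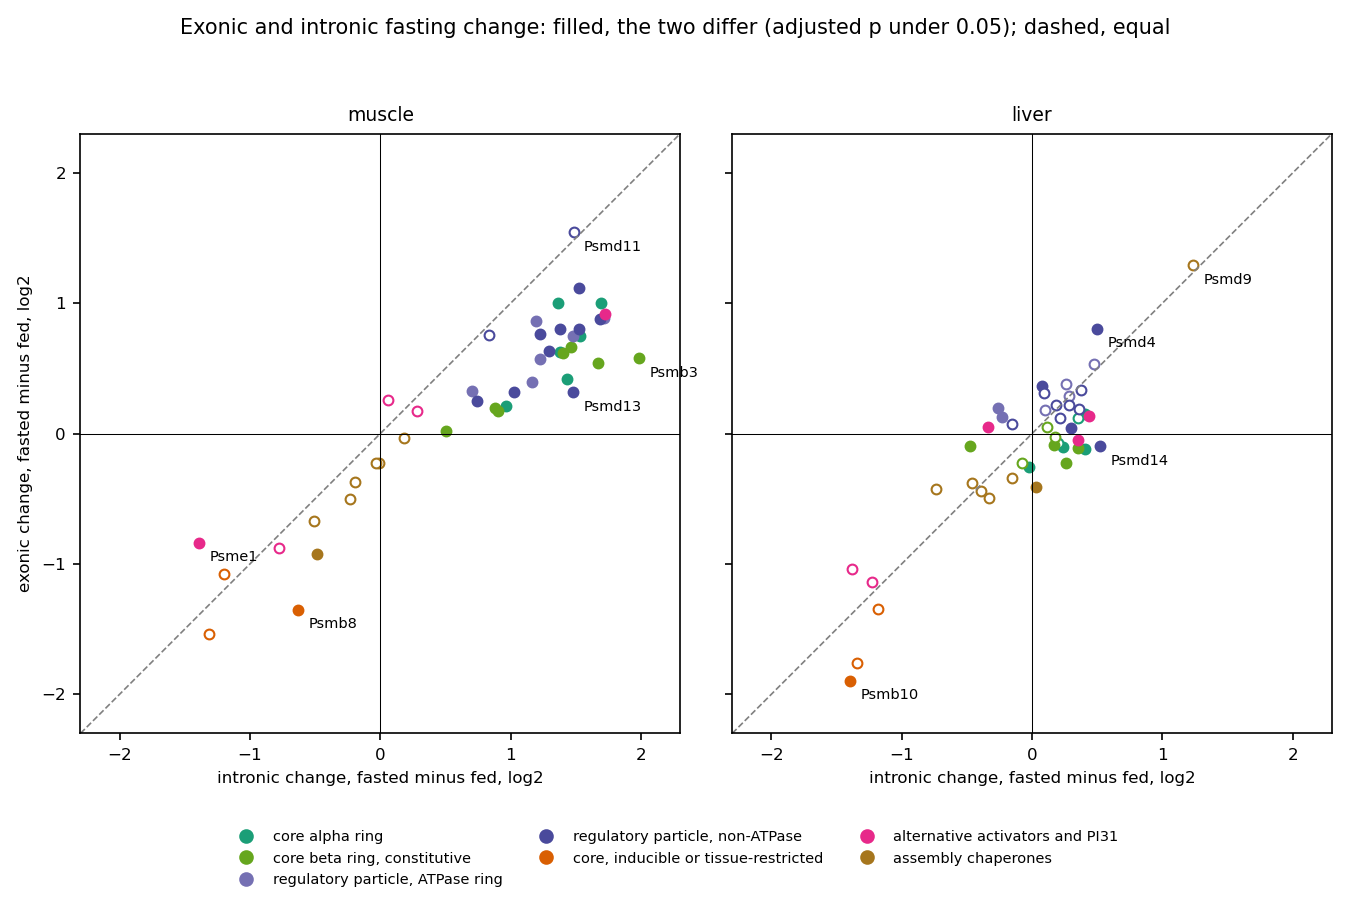
Exonic against intronic fasting change (log2, fasted minus fed) of each proteasome gene in muscle (left) and liver (right), coloured by role, with the line of equal change. In muscle most constitutive subunits lie on the intronic side of the line, and Psmd11 lies next to it, at 1.55 exonic and 1.48 intronic.

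Psmb3, a beta subunit, had 71.4, 130 and 219 exonic FPKM in fasted and 69.4, 80.5 and 142 in fed muscle, and 14.9, 37.0 and 59.0 intronic FPKM in fasted and 6.29, 7.76 and 12.8 in fed muscle. Its intronic values did not overlap and its exonic ones did, and the difference of the changes was -1.41 ± 0.12 (adjusted p = 6.87e-12). Psmd13 had 44.7, 66.2 and 101 exonic FPKM in fasted and 48.9, 53.0 and 67.1 in fed muscle, and 6.64, 16.0 and 24.1 intronic FPKM in fasted and 3.45, 4.54 and 6.13 in fed muscle. The difference for Psmd13 was -1.16 ± 0.08 (adjusted p = 9.52e-14), from 0.32 in exons and 1.48 in introns. Psma4, an alpha subunit, had 43.0, 71.1 and 97 intronic FPKM in fasted and 20.5, 26.2 and 29.5 in fed muscle and a difference of -1.01 ± 0.08 (adjusted p = 1.44e-12). Psmd11 was otherwise: its exons changed by 1.55 and its introns by 1.48, and the difference of 0.06 ± 0.07 did not pass (adjusted p = 0.464). Psmd7, a non-ATPase subunit, did not pass either (0.75 in exons, 0.83 in introns). The 1 gene above 0 was Psme1, with -0.84 in exons and -1.39 in introns (0.55 ± 0.15, adjusted p = 0.00228). Its introns had 0.559, 1.94 and 4.94 FPKM in fasted and 3.71, 5.35 and 10.8 FPKM in fed muscle. Psmb8 changed by -1.35 in exons and -0.63 in introns (difference -0.72, adjusted p = 0.000213).

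The intronic table itself moved for other genes of muscle: all 8 skeletal muscle markers were lower there in fasted muscle, with a median change of -3.58, against -0.21 for whole genes. How that table was scaled is not given in the sources used here, and the part of this in the intronic rise of the subunits was not tested.

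In liver, intronic values were higher in fasted libraries for 22 of 45 genes (18.6% of all genes were) and lower for 11 (41.1%), and exonic ones were higher for 15 (26.3%) and lower for 15 (46.4%). The exonic change minus the intronic change was above 0 for 6 (23.9%) and below 0 for 13 (14.8%). Psmd14 had the clearest gap below 0: 0.620, 1.18 and 2.22 intronic FPKM in fasted and 0.318, 0.781 and 1.12 in fed liver, and a change of -0.10 in exons and 0.52 in introns (difference -0.62, adjusted p = 2.60e-05). Psmb2 (-0.46, adjusted p = 3.96e-05) and Psma1 (-0.53, adjusted p = 0.000136) followed. Above 0 were Psmb7 (0.38, adjusted p = 0.00228), Psmd3, a non-ATPase subunit (0.29, adjusted p = 0.0068), and Psmd4 (0.31, adjusted p = 0.0106). The Psmb7 gene shares 6571 bases with Nek6, on the opposite strand, which averaged 8.95 FPKM in fasted and 18.9 FPKM in fed liver.

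Genes that work with the proteasome but lie outside the symbol rule were counted from lists chosen by function. Of 12 further subunits and partners tested in muscle, 7 were higher, 2 lower and 3 did not pass, with a median change of 0.75. Of all genes, 30.3% were higher and 51.8% lower. Zfand5, which binds the proteasome and stimulates degradation, changed by 1.75 ± 0.05 (adjusted p = 2.33e-26), Txnl1, a thioredoxin of the regulatory particle, by 1.27 ± 0.07 (adjusted p = 2.04e-17), Akirin2, which carries proteasomes into the nucleus, by 0.91 ± 0.05 (adjusted p = 1.54e-16) and the deubiquitinase Usp14 by 0.92 ± 0.09 (adjusted p = 1.62e-11). Fbxo7 did not pass (0.12, adjusted p = 0.0618) with the deposited scaling. It passed as higher with median-of-ratios (0.31, adjusted p = 2.4e-06) and quantile scaling (0.22, adjusted p = 0.00022), and on leaving out any 1 of 7 libraries. In liver 5 were higher, 4 lower and 3 did not pass, against 25.0% higher and 48.0% lower of all genes. Zfand5 changed by 0.55 (adjusted p = 1.51e-08), Shfm1, a small subunit of the regulatory particle, by -0.57 (adjusted p = 9.00e-09), the core chaperone Pomp by -0.56 (adjusted p = 1.19e-07) and Fbxo7 by -0.23 (adjusted p = 1.49e-05), and Txnl1 did not pass (-0.11, adjusted p = 0.072).

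Of 11 genes for ubiquitin, its activating enzymes and its shuttle factors, 6 were higher and 2 lower in fasted muscle, against 30.3% and 51.8% of all genes. Ubb, a polyubiquitin gene, changed by 1.30 ± 0.08 (adjusted p = 3.38e-16), and the shuttles Rad23b by 0.82 (adjusted p = 4.62e-15) and Ubqln2 by 0.88 (adjusted p = 1.68e-11). In liver 4 were higher and 2 lower, against 25.0% and 48.0% of all genes, among them Ubb at 0.52 (adjusted p = 2.20e-08), the activating enzyme Uba1 at -0.27 (adjusted p = 6.68e-06) and Ubqln2 at 0.17 (adjusted p = 0.00761). Uba1 did not pass in liver with median-of-ratios (-0.07, adjusted p = 0.143) or quantile scaling (-0.09, adjusted p = 0.0723), nor did Ubqln2 without ZT0 (0.11, adjusted p = 0.0808).

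NFE2L1 is a transcription factor known to raise proteasome genes when the proteasome is overloaded, after release from the endoplasmic reticulum by the p97 ATPase and cleavage by DDI2. Of 8 genes of this route and its relatives, all 8 were higher in fasted muscle (30.3% of all genes were), with a median change of 0.71. Ddi2 changed by 2.65 ± 0.13 (adjusted p = 9.57e-19), the p97 cofactor Nploc4 by 1.64 ± 0.09 (adjusted p = 4.32e-17), Nfe2l2, a related factor, by 1.48 ± 0.05 (adjusted p = 1.01e-23), Vcp, which encodes p97, by 0.56 ± 0.04 (adjusted p = 1.50e-14) and Nfe2l1 itself by 0.25 ± 0.05 (adjusted p = 1.10e-05). In liver 6 were higher and 2 lower, against 25.0% and 48.0% of all genes. Nploc4 changed by 0.49 (adjusted p = 2.15e-08), Ufd1l, its partner, by 0.26 (adjusted p = 1.88e-06) and Ngly1, which removes sugars from NFE2L1, by 0.44 (adjusted p = 5.44e-06). Nfe2l2 changed by -0.63 (adjusted p = 6.26e-09) and Nfe2l1 by 0.20 (adjusted p = 0.0182), and Nfe2l1 was at -0.14 at ZT0 alone. Vcp changed by -0.13 (adjusted p = 0.0234), which became 0.07 and 0.06 with median-of-ratios and quantile scaling.

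Antigen presentation and interferon response genes, which are known to be induced together with the immunoproteasome, were mostly lower in fasted libraries. In muscle 8 of 9 were lower (median -0.74; 51.8% of all genes were lower), with the peptide transporter genes Tap1 at -0.82 (adjusted p = 3.40e-10) and Tap2 at -0.74 (adjusted p = 3.61e-13), and Irf1 at -0.75 (adjusted p = 2.11e-10). Tapbp did not pass (-0.07, adjusted p = 0.327) and was at 0.13 with median-of-ratios scaling. In liver 8 of 10 were lower (median -0.57; 48.0% of all genes were), with Irf1 at -1.48 (adjusted p = 1.46e-14), Tapbp at -0.73 (adjusted p = 1.05e-10) and Tap2 at -0.61 (adjusted p = 7.64e-10), while H2-D1 did not pass (-0.06, adjusted p = 0.526). Psmb9 lies beside Tap1, and their gene models share 212 bases. A daily rhythm in fasted muscle passed for 7 of 12 partners, 8 of 11 ubiquitin genes, 7 of 8 genes of the NFE2L1 route and 4 of 9 antigen presentation genes, against 47.4% of all genes. In fed muscle 1 ubiquitin gene passed and none of the others did, against 4.46% of all genes.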

How the data were processed

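The authors deposited a table of values for whole genes (20561 genes) and tables for exons and introns (19433 genes each). No source used here names the unit. The deposited values were taken as FPKM because they are fractional, never negative, and low values step inversely with gene length. Total RNA was extracted with TRIzol and sequenced from an unstranded TruSeq v2 kit, per the labels' protocols. The submitters' processing notes name mm10 and CASAVA 1.8.2. How reads were aligned, counted and shared with processed pseudogenes, which many subunits have, is not given in the sources used here.

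Each value was put on the scale log2(FPKM + 0.5) and fitted in R 4.3.3 by the moderated linear models of limma 3.58.1, with a mean trend in the variance. A gene was tested in a tissue where 3 or more libraries had 1 FPKM or more. Benjamini-Hochberg adjustment covered every tested gene, the threshold was 0.05, and tests were two-sided. The fasting effect used time as a 6-level factor, the effect at each time 12 group means per tissue, the tissue difference 24 group means, and the rhythm F tests of a 24-h cosine and sine. Exonic and intronic values were compared by their difference within each library. Each fit was tested on simulated data. Read totals were estimated from 2487 genes with 1 transcript, as the total between 8 and 45 M that made most values of 1 to 4 reads whole. Within 0.1 read, a median of 65.4% of these values came out whole, so no count test was run. Gene models came from GENCODE M21 (mm10) and figures from Python 3.11.15 with matplotlib 3.10.9.

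The genes and lists were chosen with earlier results of these data known. Genes are named by a rule: per tissue the 4 largest rises and falls, up to 3 that did not pass, the smallest p of rhythm and of its difference, of exonic minus intronic and of the tissue difference, the catalytic subunits, the activators and, per list, 4 genes. Values of some single genes of these lists are not reported here. Others, named to list a count or show a time course, were picked after their values were seen. Alternatives were pseudocounts of 0.1 and 1, no filter, median-of-ratios and quantile scaling, a replicate block, removal of the length trend, the exonic table, a 6-level time factor, times whose fed libraries lacked transcripts of the other tissue, and each library left out. Leaving out a time was added after seeing the data.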

Additional observations from a re-analysis of the deposited data

Results flagged for a closer look

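By a test of the difference itself, the fasting change differed between the tissues for 38 of 46 genes. The change in muscle was above that in liver for 36 (38.5% of the 9419 genes tested in both tissues) and below it for 2 (31.8%). The 4 with the smallest p above 0 and both of those below 0 are given here. Muscle minus liver, the fasting change was 1.38 log2 for Psmd11, 1.17 for Psma1, 0.935 for Psma5, 0.739 for Psmd2, -1.45 for Psmd9 and -0.407 for Psmg1. In muscle, the daily rhythm differed between fasted and fed libraries most clearly for Psme3 (adjusted p = 1.46e-06), Psmd2 (adjusted p = 1.71e-06) and Psma1 (adjusted p = 2.57e-06), and in liver for Psmb6 (adjusted p = 0.001), Psmd13 (adjusted p = 0.00297) and Psmd11 (adjusted p = 0.00359). Without ZT0, no proteasome gene passed this test in liver.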

How the results depend on the processing

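Of the counts and medians recomputed without leaving out single libraries, 193 stayed within a set limit of the reported value and 27 moved further. The limit was 1.5 times for a count. For the core minus regulatory medians it was the SD of that difference between fed libraries. The cause of each move was not tested unless given. The count higher in fasted liver was 25 with median-of-ratios scaling, 27 with quantile normalisation, 6 at ZT0 and ZT4 and 4 at ZT0 alone, and the count lower was 10 with median-of-ratios scaling and 25 at ZT0. Higher at all 6 times in fasted liver were 6 with median-of-ratios scaling, 9 with quantile normalisation and 4 with the length trend removed. In fasted muscle 20 were higher and 3 lower at all 6 times with median-of-ratios scaling. Exonic minus intronic change was above 0 for 2 genes in muscle with a pseudocount of 1 and for 2 with median-of-ratios scaling, and below 0 in liver for 6 at ZT0 and ZT4 and for 6 at ZT0, with fewer libraries. The change was lower in muscle than in liver for 5 with quantile normalisation. Of liver rhythms, 14 in the fasted state, 9 in the fed state and 0 of the difference passed without ZT0, the difference gave 12 without ZT12 and 30 without ZT20, and the fed state 12 without ZT16.

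Signs turned for some genes. In muscle with median-of-ratios scaling they were Pomp (0.15) and Tapbp (0.13). In liver they were Psma1 (0.043), Psmf1 (0.10) and Vcp (0.067) with that scaling and Psma1 (0.076), Psmb5 (0.16), Psmb7 (0.10) and Vcp (0.059) with quantile normalisation. At ZT0 and ZT4 in liver Nfe2l1 (-0.22) and Psmd11 (-0.067) turned, and at ZT0 alone Nfe2l1 (-0.14), Psmd11 (-0.10), Psmd13 (-0.46) and Psmd2 (-0.28) did. Of these genes, Psma1, Psmd11, Nfe2l1 and Vcp had passed in liver with the deposited scaling and all times. Of the named genes' other values, 1128 kept their call, 51 gained a call and 44 lost one. A sign that turned where neither value passed was counted among the 1128.

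With each library left out in turn, fasted muscle had 31 to 32 higher and 11 to 12 lower, 9 to 16 higher and 4 to 7 lower at all 6 times, and 38 to 40 rhythmic genes. In liver the ranges were 12 to 15 higher, 16 to 20 lower, 1 to 3 higher and 5 to 7 lower at all 6 times, 20 to 25 rhythmic in the fasted and 14 to 23 in the fed state, and 12 to 27 for the difference. The 12 came without fasted ZT0 replicate 1 or fed ZT0 replicate 5, and the 27 without fasted ZT12 replicate 4. The count with a change higher in muscle than in liver was 34 to 37.

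Fasted and fed libraries share replicate numbers. Same-numbered libraries did not deviate together throughout (median r of 0.0604 over 12 pairs in muscle and 0.0141 over 11 in liver, each with 4 above 0.1). Muscle and liver libraries of the same number, state and time had a median r of 0.0618 over 19 pairs, with 7 above 0.1. These values cannot tell whether a number marks a pairing. The main models used the numbers only as names. With a replicate block, muscle gave 30 higher, 12 lower and 39 rhythmic in the fasted state, and liver 9 higher and 14 lower, 0 higher and 1 lower at all 6 times, and exonic minus intronic 0 above and 3 below. The tissue difference with the block was above 0 for 26 and below for 1. Of the 46 proteasome genes, the smallest change that passed in liver was 0.143 (Psmc2).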
